A study of Homo sapiens with 10 samples.

Results

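PBXIP1 encodes an adaptor protein that binds PBX homeodomain proteins. It was described together with PBX2, PBX3 and PBX4 and with MEIS1, MEIS2, PKNOX1, HOXA9 and HOXB4, whose proteins join PBX proteins on DNA. Every probe whose gene symbol was one of these names was taken, whatever its signal, which gave 13 of the 42405 probes on the array and 9 of the 19102 genes that could be named.

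MEG-01, a human megakaryoblastic leukemia cell line, was nucleofected with 200 nM of a miR-1225-3p precursor in 5 cultures and with 200 nM of a negative control precursor of scrambled sequence in 5 others. The source label of the control samples reads as untreated, whereas their titles and the methods describe transfection with the scrambled precursor. RNA was taken after 24 h and each sample was hybridised to 1 single-colour Agilent whole-genome array, 10 arrays in all on 2 slides. All cultures came from 1 line, so the p-values measure the spread between these cultures only, and the number of arrays limits the precision.

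PBX, MEIS and PKNOX proteins carry homeodomains of the TALE class and join HOX proteins on DNA, which sharpens the choice of target site. PBXIP1, also called HPIP, binds PBX proteins, hinders PBX-HOX complexes from binding DNA and also ties estrogen receptors to kinases in the cytoplasm. In blood cells MEIS1 with HOXA9 maintains progenitors and, when overexpressed, drives leukemia, and MEIS1 with PBX acts at the platelet factor 4 promoter in megakaryocytes.

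The transfected miRNA is shown because its seed is the part that pairs with target messages. Its mature sequence in RefSeq (GRCh38.p14, chr16:2090195-2090216, minus strand) lies within the interval of the PKD1 gene, and capitals mark the seed, bases 2 to 8:
miR-1225-3p: uGAGCCCCugugccgcccccag

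Values are log2 signals after cyclic loess normalization between arrays, and differences are miR-1225-3p minus scrambled. Testing required that the scanner software marked a probe as well above background on 3 or more of the 5 arrays of at least 1 group. A probe could thus pass through 1 group alone. It was called if its limma p, adjusted over all 20640 probes tested, was under 0.05. Between 41.95% and 61.18% of the spots of an array were well above background and 0 were saturated. On the first principal component, with 69.8% of the variance, the scrambled arrays scored -82.88 to -57.14 and miR-1225-3p arrays 1 to 4 scored 57.14 to 146.9, but array 5 (replicate 5) of the latter scored -63.83. The result of each tested member is therefore given with and without that array. It was singled out for lying with the other group, so leaving it out favours larger differences and smaller p-values. The values without it are a description rather than support. Among megakaryocytic markers 9 of 10 genes had a tested probe and 7 were well above background on all 10 arrays, while PF4 was well above background on no array. The summed linear signal of the 9 was 10600 to 12300 in scrambled and 7170 to 9080 in miR-1225-3p arrays, without overlap. Such a sum weighs the brightest gene most, here NFE2, with mean log2 signals of 12.82 in scrambled and 12.39 in miR-1225-3p arrays. The NFE2 difference turned to 0.13 when each array was instead scaled by its 75th percentile. Of 13 T cell, B cell, myeloid, epithelial and fibroblast markers 7 were tested, with a summed linear signal of 8260 to 14000 in scrambled and 9350 to 12400 in miR-1225-3p arrays. Among them MS4A1, CD2 and COL1A2 were well above background on 0 arrays, whereas CD79A, CD3D, CD14, MPO and EPCAM were so on all 10. CD79A had means of 11.92 with scrambled and 10.44 with miR-1225-3p and CD3D of 11.52 and 11.40, neither called. EPCAM was higher by 0.90 and MPO by 0.80 with miR-1225-3p, both called. CD3E was higher by 1.96 and called, but was well above background on 3 miR-1225-3p arrays and 1 scrambled array. CD3E thus passed the filter through the group in which it was high, so that a difference was built into passing. The part of these markers in the results was not tested.

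Across all probes tested, 35.0% were called, 16.3% as higher and 18.8% as lower. Of the 13 member probes 11 were tested, for 8 of the 9 genes, and 6 were called, 3 in each direction, in 5 genes. PBXIP1 fell by both tested probes and HOXA9 by 1 of its 2, whereas PBX4, PKNOX1 and 1 of the 2 PBX3 probes rose. PBX2, MEIS2 and HOXB4 did not pass the test, and MEIS1 was too dim to be tested. The tested PBXIP1 probes passed the background filter mainly through the scrambled arrays, so that a difference was built into passing, and the count of calls is a description rather than support.

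**Figure D1:**
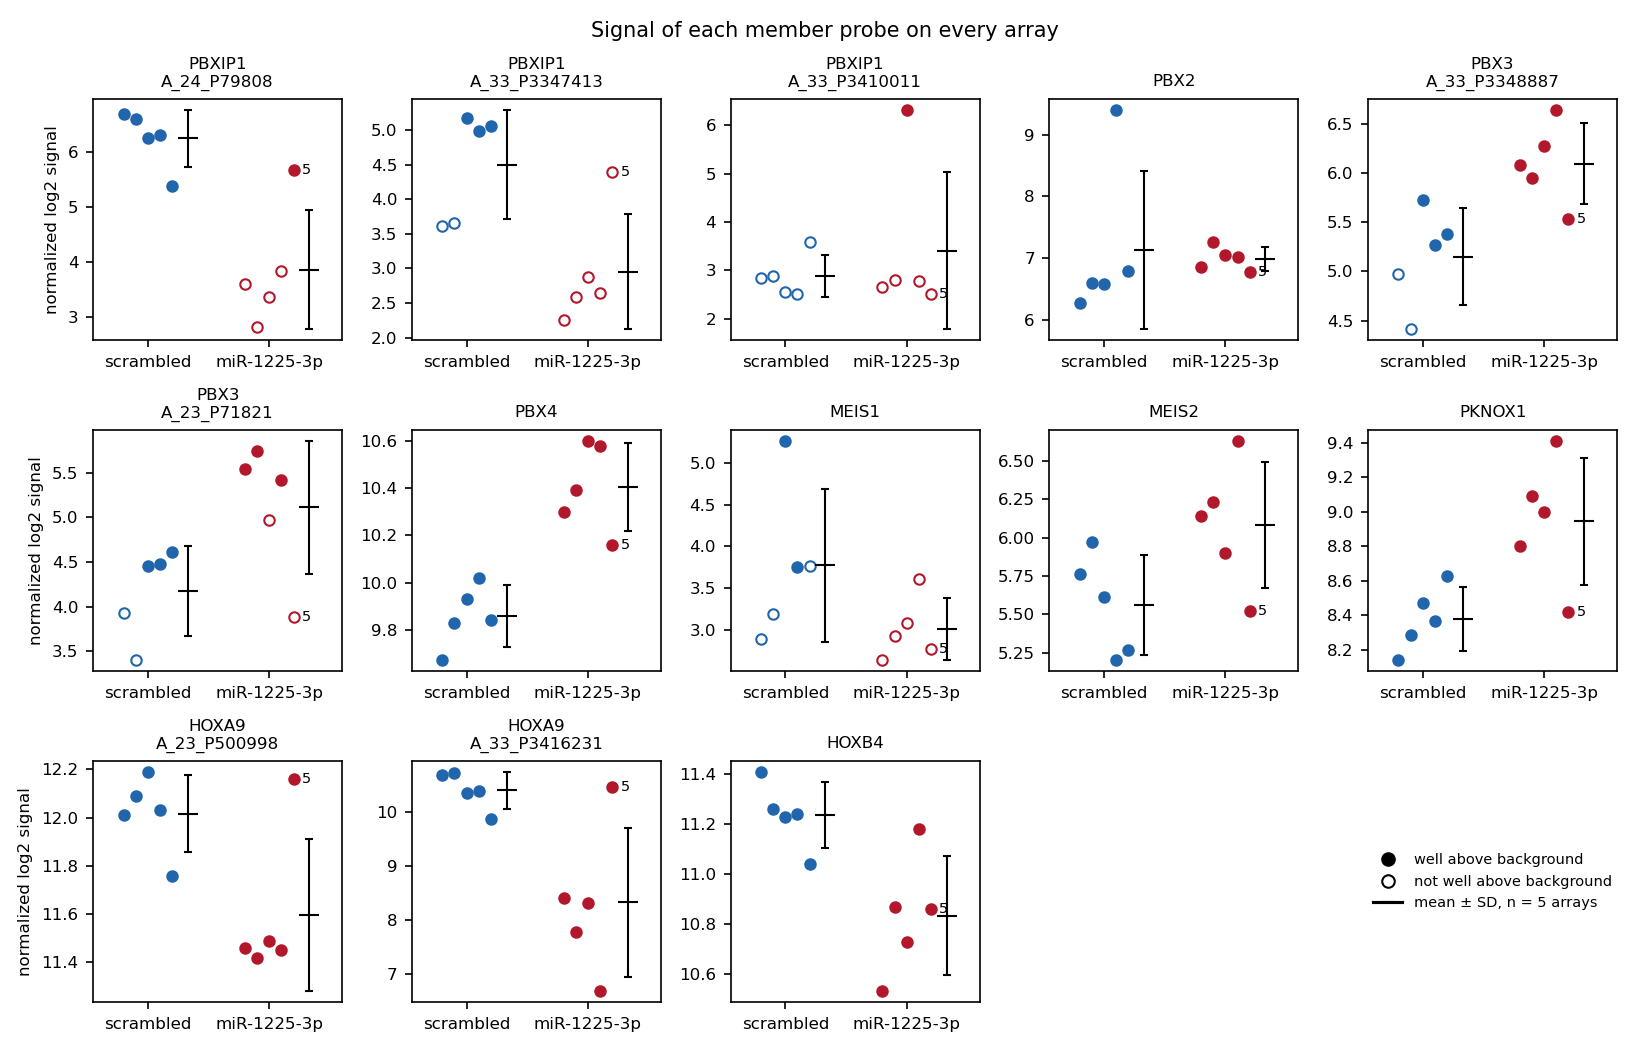
Normalized log2 signal of the 13 member probes on each array, by group, on an axis of its own for each probe; filled points are well above background, bars are the mean ± SD over 5 arrays, and the digit marks miR-1225-3p replicate 5. PBX4 is the panel in which the groups do not overlap, and in most others replicate 5 lies with the scrambled arrays.

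PBXIP1 was measured by 3 probes. Probe A_24_P79808 gave 6.70, 6.60, 6.26, 6.32 and 5.39 on scrambled arrays 1 to 5, each well above background. On miR-1225-3p arrays 1 to 5 it gave 3.60, 2.81, 3.35, 3.83 and 5.68, and only the last was well above background. Arrays 1 to 4 of the miR-1225-3p group lay below every scrambled array, and replicate 5 alone made the groups overlap, by exceeding scrambled replicate 5. The means were 3.85 ± 1.09 with miR-1225-3p and 6.25 ± 0.52 with scrambled (SD, n = 5 each), a difference of -2.40 ± 0.48 (SE) with a 95% interval of -3.47 to -1.33 (limma, adjusted p = 0.0146; 2-sided exact permutation p = 0.0159). No fold is given, since 4 of the 5 miR-1225-3p values were not well above background. In these bulk samples, fewer cells with the message and less message per cell cannot be told apart.

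Without miR-1225-3p replicate 5 the PBXIP1 difference was -2.86 (limma, adjusted p = 0.000109). On slide 1, which holds 2 arrays of the miR-1225-3p group and 3 controls, it was -2.91 (limma, adjusted p = 0.0165), and on slide 2, with 3 and 2 arrays, it was -2.17 (limma, adjusted p = 0.501), where no probe of the array was called. The size depended on the background correction, since normexp on the median signals gave -0.66, still called (limma, adjusted p = 0.0133).

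Probe A_33_P3347413 for PBXIP1 gave 3.62, 3.66, 5.18, 4.99 and 5.06 on the scrambled arrays, the last 3 of them well above background. The miR-1225-3p arrays gave 2.26, 2.58, 2.88, 2.65 and 4.39, none well above background. As with the first probe, replicate 5 was the one miR-1225-3p array inside the scrambled range. The fitted difference was -1.55 ± 0.46 (limma, adjusted p = 0.0305), and no fold is given, since no miR-1225-3p value was well above background. It was -1.91 without replicate 5 (limma, adjusted p = 0.00226), and leaving out any one of miR-1225-3p replicates 1 to 4 or scrambled replicates 3 to 5 ended the call (limma, adjusted p = 0.0614 to 0.0737). Normexp on the median signals gave -0.35.

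The remaining PBXIP1 probe, A_33_P3410011, read 2.50 to 3.59 on scrambled arrays and was well above background on 1 array, miR-1225-3p replicate 3 at 6.32. It was not tested. Over the 10 arrays the tested PBXIP1 probes correlated at r = 0.755 as a description, the points sharing a group difference and the same arrays. The gap between them changed by 0.85 between groups (exact permutation p = 0.246; 0.369 after Benjamini-Hochberg adjustment over the 3 genes with 2 tested probes, a comparison chosen after seeing the values).

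PBX proteins are the direct partners of PBXIP1. PBX4, a family member best known from testis, was the member with the least overlap between groups. It gave 9.67, 9.83, 9.93, 10.02 and 9.84 on the scrambled arrays. With miR-1225-3p it gave 10.30, 10.39, 10.60, 10.58 and 10.16, so that every miR-1225-3p array, replicate 5 included, lay above every scrambled array. Such separation held for 1 of the 11 member probes and for 12.6% of all probes tested.

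The PBX4 means were 10.40 ± 0.19 and 9.86 ± 0.13 (SD, n = 5 each), a difference of 0.55 ± 0.13 (SE; 95% interval 0.25 to 0.84), or 1.46-fold (limma, adjusted p = 0.0186). The exact permutation p was 0.00794, the smallest that 5 against 5 arrays can give. The difference was 0.61 without miR-1225-3p replicate 5 and 0.96 after subtraction of the 75th percentile. It was 0.53 within slide 1 (limma, adjusted p = 0.0778) and 0.52 within slide 2 (limma, adjusted p = 0.501), and the call was also lost without miR-1225-3p replicate 3 (limma, adjusted p = 0.0512).

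PBX3, which cooperates with HOXA9 and MEIS1 in myeloid leukemia, had 2 tested probes. A_33_P3348887 gave 4.97, 4.41, 5.72, 5.27 and 5.38 on the scrambled arrays, the last 3 well above background. It gave 6.08, 5.95, 6.27, 6.64 and 5.53 with miR-1225-3p, all well above background. Replicate 5 lay below scrambled replicate 3 and was the only miR-1225-3p array inside the scrambled range. The difference was 0.94 ± 0.27 (SE; 95% interval 0.34 to 1.55), or 1.92-fold (limma, adjusted p = 0.0278; exact permutation p = 0.0159).

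That probe differed by 1.08 without miR-1225-3p replicate 5 (limma, adjusted p = 0.00686). Within slides it differed by 0.66 (limma, adjusted p = 0.122) and 1.31 (limma, adjusted p = 0.501), and normexp gave 0.30. The call was lost on leaving out any one of miR-1225-3p replicates 2, 3 and 4 or scrambled replicates 1, 2 and 4 (limma, adjusted p = 0.0535 to 0.0653). The other PBX3 probe, A_23_P71821, gave 3.93, 3.40, 4.46, 4.48 and 4.61 with scrambled and 5.54, 5.74, 4.97, 5.42 and 3.88 with miR-1225-3p, 3 of 5 arrays well above background in each group. Of the latter group 4 arrays exceeded all scrambled arrays, and replicate 5 lay below 4 of them. Its difference of 0.93 ± 0.37 missed the threshold (limma, adjusted p = 0.0689) and passed it without replicate 5, at 1.24 (limma, adjusted p = 0.00405). The gap between the PBX3 probes changed by -0.01 between groups (exact permutation p = 0.952; r = 0.844 over 10 arrays).

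PBX2, a broadly expressed family member, gave 6.27, 6.60, 6.58, 9.40 and 6.79 with scrambled and 6.85, 7.26, 7.05, 7.01 and 6.77 with miR-1225-3p. Scrambled replicate 4 was the highest array, and the other scrambled values lay below all miR-1225-3p values except that scrambled replicate 5 just exceeded miR-1225-3p replicate 5. The difference of -0.14 had a 95% interval of -1.30 to 1.01 (limma, adjusted p = 0.837), and it was -0.087 without miR-1225-3p replicate 5 (limma, adjusted p = 0.907). The probe is printed on 2 spots, which on scrambled replicate 4 read 6.73 and 12.08, a gap of 5.35 against a median gap of 0.13. Leaving out the spot at 12.08, a choice made after seeing the data, turned the difference to 0.39 (limma, adjusted p = 0.059), and leaving out that whole array turned it to 0.43 (limma, adjusted p = 0.0851).

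**Figure D2:**
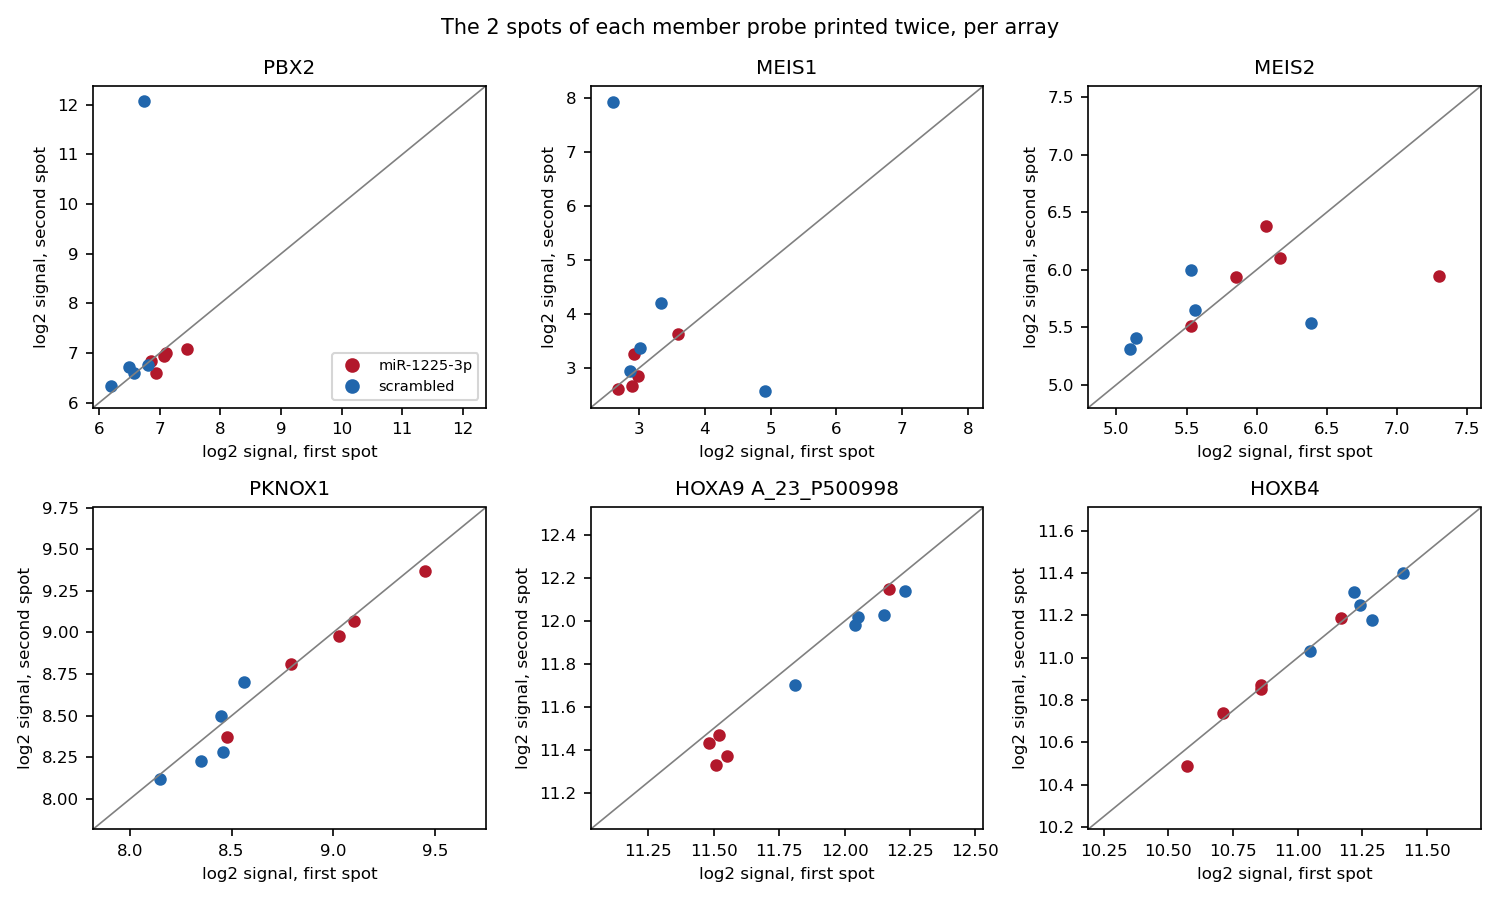
Log2 signal of the first spot (x axis) against the second (y axis) for the 6 member probes printed on 2 spots, 1 point per array, with the line of equal signal. PBX2 has 1 scrambled array and MEIS1 2 scrambled arrays far from the line, whereas the spots of PKNOX1, HOXA9 and HOXB4 lie within 0.19 of each other on every array.

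MEIS and PKNOX proteins bind PBX through their amino-terminal part and keep it in the nucleus. MEIS1, the leukemia cofactor of HOXA9, gave 2.90, 3.19, 5.26, 3.75 and 3.77 with scrambled and 2.65, 2.93, 3.09, 3.61 and 2.78 with miR-1225-3p. It was well above background on scrambled replicates 3 and 4 alone, so it was not tested. On those arrays its 2 spots read 2.60 and 7.93, and 4.92 and 2.57, so that in each case a single spot carried the signal.

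MEIS2, a close relative of MEIS1, was well above background on all 10 arrays. It gave 5.76, 5.97, 5.61, 5.20 and 5.27 with scrambled and 6.14, 6.23, 5.90, 6.63 and 5.52 with miR-1225-3p. Replicates 3 and 5 of the miR-1225-3p group lay inside the scrambled range. The difference was 0.52 ± 0.23 (SE; 95% interval 0.01 to 1.03) and missed the threshold (limma, adjusted p = 0.095), and it was 0.66 without miR-1225-3p replicate 5 (limma, adjusted p = 0.0213). Its 2 spots differed by 1.35 on miR-1225-3p replicate 4, its highest array.

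PKNOX1, also called PREP1, competes with MEIS proteins for PBX. It gave 8.14, 8.29, 8.47, 8.37 and 8.63 with scrambled and 8.80, 9.09, 9.0, 9.41 and 8.42 with miR-1225-3p. Arrays 1 to 4 of the miR-1225-3p group lay above every scrambled array and replicate 5 lay within them. The means were 8.94 ± 0.37 and 8.38 ± 0.19 (SD, n = 5 each), a difference of 0.56 ± 0.19 (SE; 95% interval 0.14 to 0.99), or 1.48-fold (limma, adjusted p = 0.0429; exact permutation p = 0.0238).

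The PKNOX1 difference was 0.69 without miR-1225-3p replicate 5 (limma, adjusted p = 0.00453). With slide as a block it was 0.57 and no longer called (limma, adjusted p = 0.0583), and it was 0.53 and 0.62 within the slides. Leaving out any single array other than miR-1225-3p replicate 5 or scrambled replicate 5 also ended the call (limma, adjusted p = 0.0589 to 0.0972).

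HOX proteins are the DNA-binding partners of these complexes. HOXA9 is the HOX gene most often raised in acute myeloid leukemia, and its 2 probes both had means below those of scrambled, though by different amounts. A_33_P3416231 gave 10.68, 10.71, 10.34, 10.39 and 9.87 with scrambled and 8.41, 7.78, 8.31, 6.68 and 10.45 with miR-1225-3p, well above background on every array. Replicates 1 to 4 lay below all scrambled arrays and replicate 5 within them. The difference was -2.07 ± 0.57 (SE; 95% interval -3.33 to -0.82), or 4.20-fold (limma, adjusted p = 0.024; exact permutation p = 0.0317).

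For that HOXA9 probe the difference was -2.60 without miR-1225-3p replicate 5 (limma, adjusted p = 0.00034), -2.20 within slide 1 (limma, adjusted p = 0.0154) and -2.07 within slide 2 (limma, adjusted p = 0.501). Leaving out any one of miR-1225-3p replicates 2 and 3 or scrambled replicates 1, 2 and 4 ended the call (limma, adjusted p = 0.0509 to 0.0618).

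The other HOXA9 probe, A_23_P500998, gave 12.01, 12.09, 12.19, 12.03 and 11.76 with scrambled and 11.46, 11.42, 11.49, 11.45 and 12.16 with miR-1225-3p. Replicates 1 to 4 spanned less than 0.1 and lay below all scrambled arrays, and replicate 5 was higher than 4 of these. The difference was -0.42 ± 0.17 and was not called (limma, adjusted p = 0.0768), was -0.56 without replicate 5 (limma, adjusted p = 0.00283), and turned to 0.09 when each array was instead scaled by its 75th percentile (limma, adjusted p = 0.647).

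The gap between the HOXA9 probes was -3.27 ± 1.10 with miR-1225-3p and -1.62 ± 0.26 with scrambled (SD, n = 5 each). It changed by -1.65 (exact permutation p = 0.0238; 0.0714 after adjustment over the 3 genes), with r = 0.914 over the 10 arrays. Which transcripts each probe covers was not examined here.

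HOXB4, known for expanding hematopoietic stem cells, gave 11.41, 11.26, 11.23, 11.24 and 11.04 with scrambled and 10.53, 10.87, 10.73, 11.18 and 10.86 with miR-1225-3p. The 2 groups overlapped only through miR-1225-3p replicate 4 and scrambled replicate 5, and here replicate 5 lay with its own group. The difference was -0.40 ± 0.15 (SE; 95% interval -0.73 to -0.08) and just missed the threshold (limma, adjusted p = 0.0539; exact permutation p = 0.0159), was -0.41 and called without replicate 5 (limma, adjusted p = 0.0409), and turned to 0.07 with the 75th percentile (limma, adjusted p = 0.814). The median of all probes tested was -0.091 with cyclic loess and 0.109 with the 75th percentile. The change between scalings was not uniform: bright NFE2 went from -0.43 to 0.13, whereas dim HOXB3 went from -2.65 to -2.75.

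**Figure D3:**
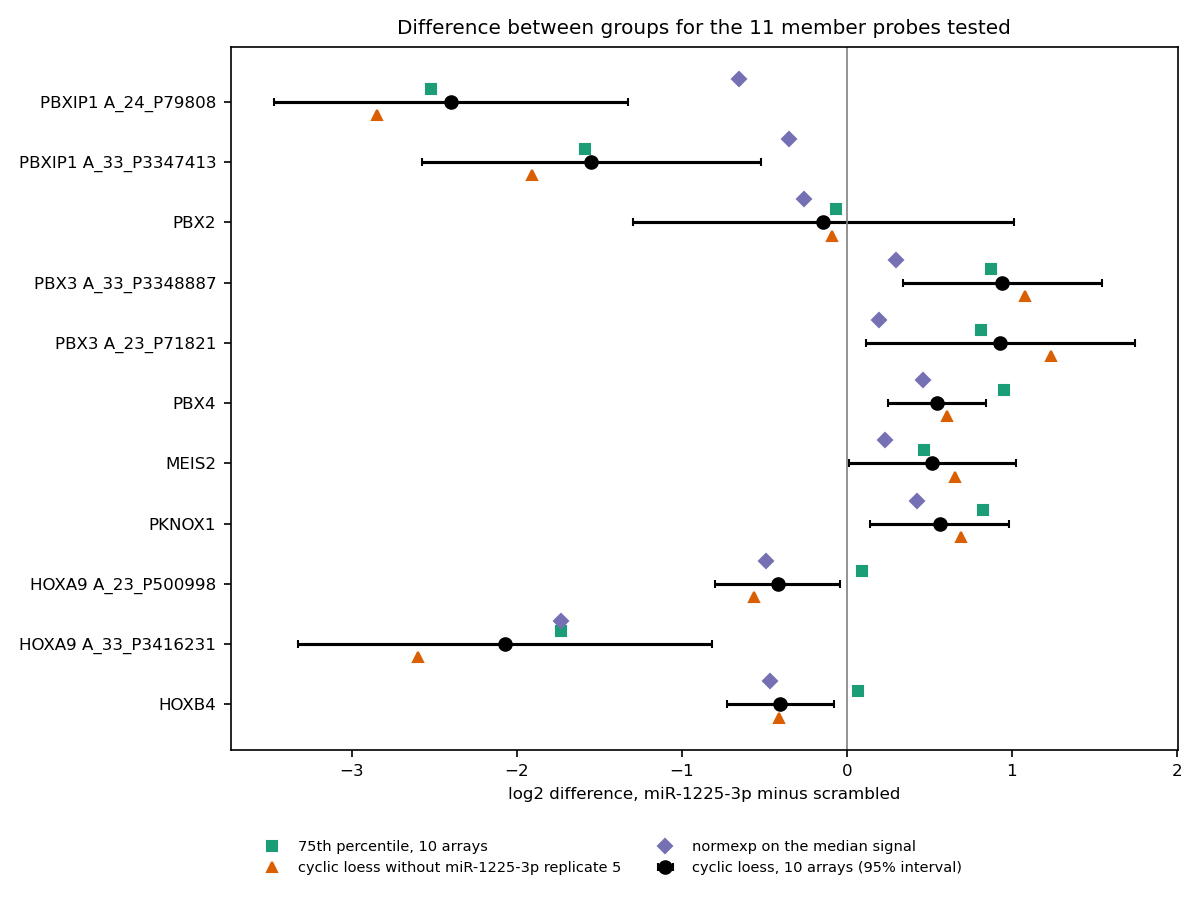
Log2 difference, miR-1225-3p minus scrambled, for the 11 member probes tested, with 95% intervals for the 10 arrays after cyclic loess and the values under 3 other settings. Both PBXIP1 probes and HOXA9 A_33_P3416231 stay left of 0 and the PBX3, PBX4, MEIS2 and PKNOX1 probes right of it, while HOXA9 A_23_P500998 and HOXB4 cross to the right when the 75th percentile is subtracted.

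Without miR-1225-3p replicate 5, 10 of the 11 member probes tested were called, as were 55.8% of all probes, and PBX2 was the exception. Without other single arrays the number of member probes called was 1 to 5, against 6 with all 10 arrays: leaving out miR-1225-3p replicate 3 left 1, leaving out its replicate 2 or scrambled replicate 4 left 2, and leaving out scrambled replicate 1 or 2 left 3. The share called among all probes also fell, to 12.4% without miR-1225-3p replicate 3, 11.1% without its replicate 2, 17.2% without scrambled replicate 4 and 19.4% without scrambled replicate 1 or 2. Of the 7 member probes well above background on all 10 arrays 3 were called: PBX4, PKNOX1 and HOXA9 A_33_P3416231. When only the 13778 such probes were tested, of which 39.1% were called, HOXB4 was called as well (limma, adjusted p = 0.0393), making 4.

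The wider families were described from lists of genes. Of 37 other HOX cluster genes, all with a probe, 14 were well above background on 0 arrays and 13 were tested. Of these 4 were called (30.8%, against 35.0% of all probes), 1 higher and 3 lower, and the median difference was -0.16, or 0.12 with the 75th percentile. HOXA5 gave 5.83 to 6.13 with scrambled and 4.16 to 5.58 with miR-1225-3p, a difference of -0.88 ± 0.24 (limma, adjusted p = 0.0245). HOXD13, a limb patterning gene, gave 7.42 to 7.59 with scrambled and 7.60 to 8.55 with miR-1225-3p and rose by 0.73 ± 0.18 (limma, adjusted p = 0.0192). In both genes the groups did not overlap, which the rule that named them required. Such separation held for 3 of the 13 HOX genes tested and for 12.6% of all probes tested.

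The other HOX genes called, named after their values were seen, were HOXB3 at -2.65, with 2 of the 5 miR-1225-3p arrays well above background, and HOXB6 at -0.87, which lost its call with the 75th percentile (limma, adjusted p = 0.129). HOXB3 passed the filter through the scrambled arrays alone, where it was high, so that a difference was built into passing. HOXA10 had a difference of -2.54 ± 0.90 that just missed the threshold (limma, adjusted p = 0.05001), with 1 scrambled array at 15.01 above the others. The number of HOX genes called was 1 when replicate 2 of the miR-1225-3p group was left out, 2 when replicate 3 of either group was, and 6 when miR-1225-3p replicate 5 was, beside 11.1%, 12.4% or 18.2%, and 55.8% of all probes.

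Of 12 further TALE homeobox genes 11 had a probe and 2 were tested, and MEIS3 was well above background on 0 arrays. TGIF1, a repressor in transforming growth factor signalling, gave 7.50 to 8.59 with scrambled and 2.58 to 7.73 with miR-1225-3p, a difference of -2.82 ± 0.93 (SE; limma, adjusted p = 0.0409). It was the single TALE gene called, had 3 of the 5 miR-1225-3p arrays well above background, and lost its call without any one array other than miR-1225-3p replicates 1 and 5. IRX5 differed by -0.80 (limma, adjusted p = 0.0963).

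Chromatin regulators that set HOX gene activity were called in 10 of 20 genes tested (50%, against 35.0% of all probes), 4 higher and 6 lower, with a median of -0.23, or 0.13 with the 75th percentile. When only probes well above background on all 10 arrays were tested, 8 of 18 were called, against 39.1% of all such probes. The genes called higher were EZH2 (0.67), CBX2 (0.65), RNF2 (0.51) and SUZ12 (0.50), which encode subunits of the Polycomb complexes that silence HOX genes. EZH2, the methyltransferase among them, gave 10.03, 10.12, 10.25, 10.23 and 10.53 with scrambled and 10.96, 10.97, 11.04, 10.90 and 10.65 with miR-1225-3p. Its groups did not overlap, as the naming rule required (5 of the 20 genes tested, against 12.6% of all probes). Its rise had a limma adjusted p of 0.0146, and that of CBX2 one of 0.0206. A further Polycomb gene on the list, BMI1, differed by -0.23 ± 0.29 and was not called.

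The chromatin genes called lower were KMT2A (-0.57), MEN1 (-1.33), ASH2L (-0.46), MLLT3 (-4.49), AFF4 (-0.64) and KDM6B (-1.56). MLLT3 and KDM6B passed the filter through the scrambled arrays alone, where they were high, so that a difference was built into passing. KMT2A, MEN1 and ASH2L encode parts of the MLL methyltransferase complex that keeps HOX genes active, MLLT3 and AFF4 parts of elongation complexes, and KDM6B a demethylase that removes the Polycomb mark. KMT2A gave 10.73, 10.66, 10.50, 10.62 and 10.51 with scrambled and 9.98, 9.77, 9.87, 10.28 and 10.24 with miR-1225-3p (limma, adjusted p = 0.0182). Its groups did not overlap, which its naming required. WDR5 and DOT1L, which work with the same complexes, differed by 0.55 and 0.34 and were not called (limma, adjusted p = 0.109 and 0.11). This sorting by function was noticed after the values were seen and has no test.

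With the 75th percentile the 4 Polycomb genes kept their calls, at 0.86 to 1.11, WDR5 was called as higher, and AFF4, KMT2A and ASH2L lost theirs, at -0.33, -0.15 and -0.13, leaving 5 higher and 3 lower. Each of these genes moved upward with that scaling, as did other bright genes such as HOXB4 and NFE2. MLLT3 and KDM6B each had 2 of the 5 miR-1225-3p arrays well above background. The number called was 2 without miR-1225-3p replicate 2, 3 without replicate 3, and 6 without any one of scrambled replicates 1, 2 and 3, where 11.1%, 12.4% and 18.2% to 19.4% of all probes were called.

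**Figure D4:**
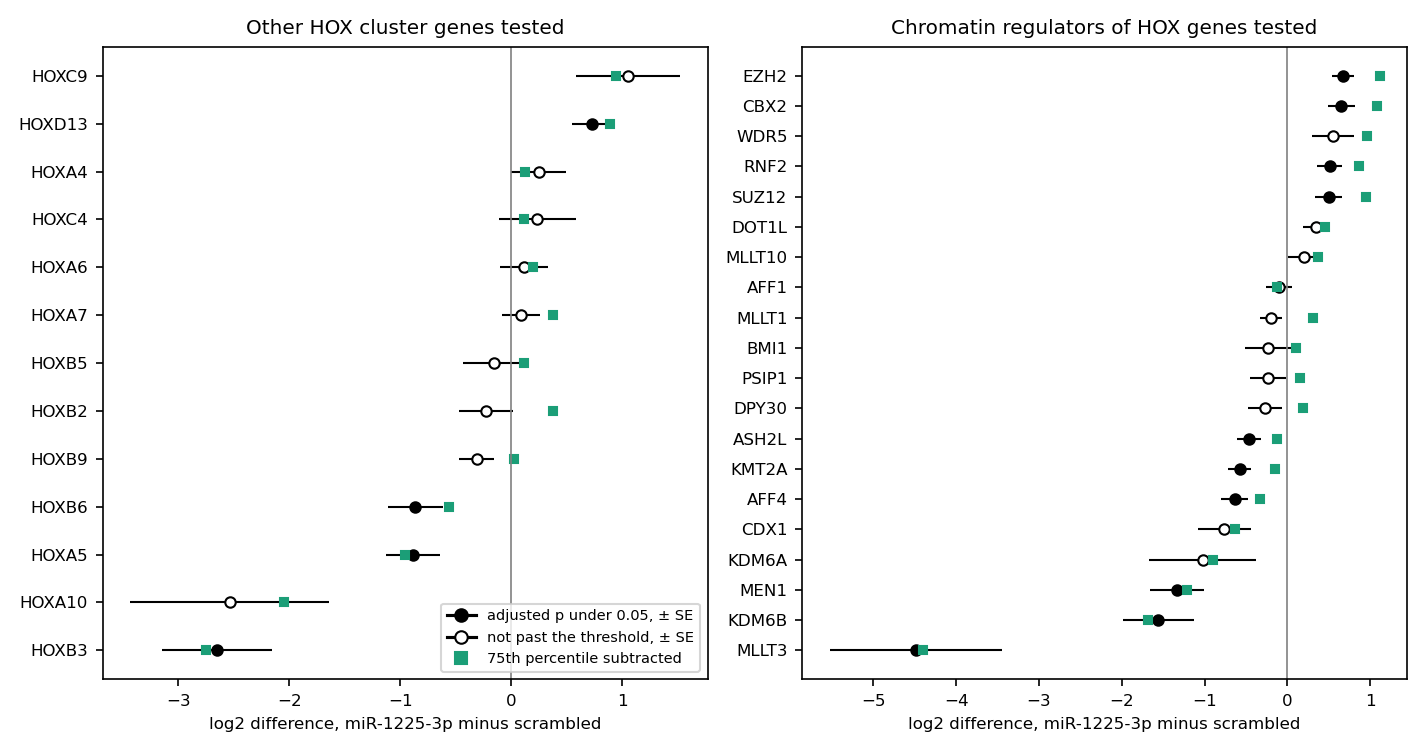
Log2 difference, miR-1225-3p minus scrambled, with its SE for the other HOX cluster genes (left) and the chromatin regulators (right) that were tested; filled circles passed an adjusted p of 0.05 and squares give the value after subtraction of the 75th percentile. The Polycomb genes EZH2, CBX2, RNF2 and SUZ12 lie right of 0 under both scalings, whereas HOXB2, HOXB5, HOXB9, BMI1, PSIP1, DPY30 and MLLT1 change sign between them.

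Of 17 known targets of HOX, MEIS and PBX proteins and partners of PBXIP1, 12 were tested and 3 were called (25%, against 35.0% of all probes), 2 higher and 1 lower. MSI2, an RNA-binding regulator of stem cells, gave 10.63 to 10.85 with scrambled and 10.96 to 11.33 with miR-1225-3p and rose by 0.37 ± 0.12 (limma, adjusted p = 0.0395). ESR2, one of the estrogen receptors that PBXIP1 binds, rose by 1.30 ± 0.32 (limma, adjusted p = 0.0188). TRIB2, a kinase-like target of MEIS1 in leukemia, fell by 4.51 on the log2 scale (limma, adjusted p = 0.0144), with a single miR-1225-3p array well above background. It passed the filter through the scrambled arrays alone, where it was high, so that a difference was built into passing. ESR2 and TRIB2 were named after their values were seen. The number of these genes called was 1 without miR-1225-3p replicate 2 (11.1% of all probes) and 6 without replicate 5 (55.8%).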

How the data were processed

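MEG-01 RNA from 5 miR-1225-3p and 5 scrambled cultures was hybridised to Agilent 8x60K arrays. The deposited scanner files hold fluorescence intensity per spot, which per the submitters' processing notes was extracted by the authors with Agilent Feature Extraction 10.7.3.1, background-subtracted and not yet normalized between arrays (the processed signal). The authors also deposited a table of log2 values normalized by cyclic loess for fewer probes, its centring not stated further, used as an alternative. The aligner and genome build do not apply. Here 4259 control spots and 3681 spots flagged as outliers were left out, log2 signals were normalized by cyclic loess (3 iterations), and the spots of a probe were averaged, giving 42405 probes. Symbols came from RefSeq accessions, which matched 24910 probes (the others have no name here), and a listed gene was represented by its brightest tested probe. Probes marked as well above background on 3 or more of the 5 arrays of at least 1 group (20640) were tested with limma 3.58.1 (R 4.3.3). Benjamini-Hochberg adjustment was at 0.05, after a check on simulated data. Single values were also tested by a 2-sided exact permutation test.

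All members were named with every probe. In each other list the rule named at most 4 genes, those of largest difference among called genes whose groups did not overlap and that were above background on 3 or more arrays in each group. Further genes are said to be named after their values were seen. The members and lists were chosen with earlier results of these data known. Alternatives were the scaling, background correction, filter, flags, probe choice, test, slide, replicate block and leaving out each array. Leaving out divergent spots was added after seeing the data. Sequences other than that of the miRNA were not used here. Some list genes are not reported here.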

Additional observations from a re-analysis of the deposited data

Results flagged for a closer look

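Among 26 groups of 5 arrays (13 member probes in each of 2 groups), 3 held 1 array far from the other 4, where chance alone flags about 1 in 20 groups, or 1.3 of 26. PBXIP1 probe A_33_P3410011 read 6.32 on miR-1225-3p replicate 3, where the next highest array of the group read 2.80. PBX2 read 9.40 on scrambled replicate 4, against 6.79 on the next highest scrambled array, and 1 of its 2 spots there read 12.08 while the other read 6.73. HOXA9 probe A_23_P500998 read 12.16 on miR-1225-3p replicate 5, against 11.49 on the next highest array of that group and 11.76 to 12.19 on the scrambled arrays. The causes were not tested.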

How the results depend on the processing

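The direction of both tested PBXIP1 probes, both PBX3 probes, PBX4, MEIS2, PKNOX1 and HOXA9 A_33_P3416231 held under every alternative run. The exceptions turned sign. HOXA9 A_23_P500998 went to 0.0917 and HOXB4 to 0.0672 with the 75th percentile, with or without divergent spots. PBX2 went to 0.394 without divergent spots, 0.465 with the 75th percentile as well, 0.508 within slide 1, and ranged from -0.356 to 0.427 over single arrays left out. The PBXIP1 difference ranged from -2.85 to -2.14 over arrays left out and was called in each. It was not called within slide 2 (-2.17) nor with the replicate block (-2.40; limma, adjusted p = 0.0503). Arrays of the 2 groups that share a replicate number did not deviate alike (correlations of deviations -0.402 to 0.0583). This cannot show whether such cultures were handled together. With the replicate block limma called 0 of 20640 probes, with 8992 at an unadjusted p under 0.05, and 0 member probes, HOX, other TALE, chromatin or target genes. Within slide 2, limma likewise called 0 in all of these, with 1395 probes at an unadjusted p under 0.05. Member probes called were 6 in the main setting, 3 with no filter on dim probes, 2 without normalization and 1 to 10 over arrays left out. They were 8 with the authors' normalized values (39% of all probes) and 8 with normexp (29.9%). Over all alternatives run, HOXB4 gained a call in 7, stayed uncalled in 18 and turned sign in 2. HOXA9 A_23_P500998 gained a call in 3, stayed uncalled in 22 and turned sign in 2. HOX genes called were 4, then 2 without normalization and 1 to 6 over arrays left out. Other TALE genes called were 1, then 0 with no filter, without normalization, with probes required on all 10 arrays, with slide as a block and by the methods' t-test, and 0 to 2 over arrays left out. Chromatin genes called were 10, then 2 without normalization, 5 within slide 1 and 2 to 12 over arrays left out. Targets called were 3, then 5 with the 75th percentile with or without divergent spots, 1 without normalization, 1 within slide 1 and 1 to 6 over arrays left out. The causes were not tested. Over all probes the count called was 7227, 8402 with the 75th percentile, 4014 of 42405 with no filter, 1224 without normalization, 5481 by the methods' t-test (9873 before adjustment), and 2281 to 11520 over arrays left out. PBXIP1, MEIS1, HOXB3, MLLT3, KDM6B and TRIB2 were near background on most miR-1225-3p arrays, which limits the size of their differences.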

Other observations

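Of 9 megakaryocytic markers tested 4 were called, all lower (44.4%, against 35.0% of all probes called and 18.8% called lower), and 2 were called lower with the 75th percentile. The transcription factors GATA1 (-1.04; limma, adjusted p = 0.0572) and TAL1 (-0.21; limma, adjusted p = 0.181) were not called. GATA2, which maintains progenitors, gave 8.67, 8.54, 8.69, 8.74 and 8.64 with scrambled and 7.42, 7.40, 7.40, 7.72 and 8.35 with miR-1225-3p, a difference of -1.0 ± 0.19 without overlap (limma, adjusted p = 0.0146). FLI1 differed by -0.60 and NFE2 by -0.43, also without overlap, but NFE2 turned to 0.13 when the 75th percentile was subtracted. The naming rule required such separation of GATA2, FLI1 and NFE2, and it held for 12.6% of all probes. ITGA2B, a subunit of the fibrinogen receptor of platelets, differed by -1.39 (limma, adjusted p = 0.0438), with miR-1225-3p values of 7.50 to 10.25 overlapping those of scrambled at 9.26 to 10.51, and lost its call with the 75th percentile (limma, adjusted p = 0.0533). HBE1, an embryonic globin gene, was the single erythroid gene called as lower among 5 tested (20%), at -1.71.

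The genes whose signal followed PBXIP1 A_24_P79808 most closely over the 10 arrays, among 11989 named genes, were ANKRD36BP1 (Pearson r = 0.994), BBS5 (0.993), C6orf47 (0.99), ANXA7 (0.99) and U2AF2 (0.988). These correlations are descriptions, since all share the same arrays and the group difference: 812 genes exceeded 0.9 and 1194 lay below -0.9. PBXIP1, ANKRD36BP1 and C6orf47 were each well above background on only 1 miR-1225-3p array, so their correlations rest partly on readings near background. BBS5, ANXA7 and U2AF2 were well above background on all 10 arrays. Among the members r was 0.933 for HOXA9, 0.746 for HOXB4, 0.00447 for PBX2, -0.631 for MEIS2, -0.808 for PBX3, -0.877 for PBX4 and -0.889 for PKNOX1.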
